A study of Arabidopsis thaliana with 9 samples.

Results

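The 6 libraries from transgenic Arabidopsis thaliana seedlings were set together against the 3 wild-type (WT) libraries of the same series, so that 6 of 9 libraries formed one side of the comparison. The transgenic libraries were taken by their titles: 35S-ASCO replicates 1 to 3, labelled as overexpression and promoter trap of AT1G67105, and RNAi-ASCO replicates 1 to 3, labelled as a knock-down of it by RNAi and siRNA. All 9 are labelled as seedlings grown in vitro, with polyadenylated RNA taken for stranded paired-end sequencing. The WT and 35S-ASCO libraries and RNAi-ASCO replicate 3 are labelled 16 days old at Boyes stage 1.04, whereas RNAi-ASCO replicates 1 and 2 are labelled 4 days old. The series' design text calls the 3 libraries of each genotype biological replicates. The accession, the number of independent lines and insertions, the plants pooled per library and the hour of harvest are not given in the sources used here. The 35S promoter of cauliflower mosaic virus, named in the sample titles, drives strong transcription in most plant tissues.

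AT1G67105 encodes ASCO, a long noncoding RNA named for competing with messenger RNAs for nuclear speckle RNA-binding proteins that take part in alternative splicing. The series concerns that role, but its files hold counts per gene, so that the values below are transcript levels and not splicing. A gene whose 6 transgenic values all lie above, or all lie below, the 3 WT values lies on the same side of WT in both lines, although the constructs were labelled as acting in opposite directions. Levels are given as CPM, counts of read pairs relative to each library's total after scaling by the trimmed mean of M values (TMM). Fold changes are log2 values, the mean of the change in 35S-ASCO and the change in the RNAi-labelled libraries, and they were tested with edgeR's quasi-likelihood test, with Benjamini-Hochberg adjustment over all 22719 genes tested and a threshold of 0.05.

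Counted pairs ranged from 27044702 in WT replicate 1 to 126355312 in 35S-ASCO replicate 1. A floor of 3 pairs then lay between 0.0237 and 0.11 CPM, which covers counting error only. All 10 markers of root and all 10 of leaf and shoot were detected in every library. At the threshold given above, 0 of the root markers were higher in the transgenic libraries. Of the 10 leaf and shoot markers 2 were higher, LHCB3 and STM, beside 4.05% of all genes tested. LHCB3 also belongs to the photosynthesis genes described below and is counted there too, so that it is no separate result. Summed root markers came to 2840 to 3380 CPM in WT, 3120 to 3310 CPM in 35S-ASCO and 2730 to 2840 CPM in the RNAi-labelled libraries, and summed leaf and shoot markers to 9900 to 11600, 9800 to 10900 and 10500 to 11100 CPM. The 5 flower markers summed to 1.23 to 2.72 CPM and the 7 seed markers to at most 0.522 CPM, with 2 of these 7 at 0 pairs throughout. In bulk seedlings, fewer cells of a type and less RNA per cell cannot be told apart. On the first principal component (35.1% of the variance) the RNAi-labelled libraries lay at 16.6 to 29.5, 35S-ASCO at -9.6 to -1.5 and WT at -22.6 to -11. On the second (26.9%) WT replicate 3 stood at -24.9 and 35S-ASCO replicate 1 at 29.2, with the others between -8.2 and 17.1.

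The targeted transcript was higher in all 6 transgenic libraries. AT1G67105 stood at 6.54, 3.65 and 2.48 CPM in WT, at 3540, 3660 and 3650 CPM in 35S-ASCO and at 16.9, 19.5 and 22.9 CPM in the RNAi-labelled libraries. Both transgenic groups therefore lay above WT, by log2 fold changes of 9.84 (SE 0.32, edgeR adjusted p = 7.02e-07) in 35S-ASCO and 2.33 (SE 0.25, edgeR adjusted p = 0.000867) in the RNAi-labelled libraries. The gene lies at positions 25057479 to 25058264 of the plus strand of chromosome 1 in TAIR10.1 and is annotated as a noncoding RNA. Counts per gene cannot tell reads of the native transcript from reads of a construct. Because the value goes against the knock-down label, the libraries titled RNAi-ASCO are named by that label throughout, as RNAi-labelled libraries.

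Of the 22719 genes tested, 1384 (6.09%) passed the threshold between the transgenic libraries and WT. Of these, 919 (4.05%) were higher and 465 (2.05%) lower. In 1313 genes (5.78%) all 6 transgenic values lay above all 3 WT values, and in 1058 (4.66%) all lay below. Both conditions were met by 682 genes (3.0%) on the higher side and 345 (1.52%) on the lower side, and these 1027 genes are the ones described below. The order of the values and the test use the same counts, so that neither supports the other. Among all 33602 gene models in the files, 1351 had all 6 values above and 1097 all 6 below, of which 38 and 39 were under the filter on low counts and were not tested.

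Most of these shifts were small. The median log2 fold change was 0.44 over the 682 higher genes and -0.31 over the 345 lower genes, beside -0.007 over all genes tested. At least a 2-fold change was seen in 78 of the 682 and 31 of the 345, while 451 and 265 changed by less than 1.5-fold. Just inside the rule, among called genes averaging 1 CPM or more, PI4K GAMMA 7 and RBP-DR1 had a gap between the nearest WT and transgenic values of 1.0-fold to 3 digits, and AT5G35460, just outside it, likewise. The libraries labelled RNAi-ASCO lay farther from WT than 35S-ASCO in 488 of the 682 and 278 of the 345. The lines themselves differed at the threshold in 96 of the 682 (14.1%) and 55 of the 345 (15.9%), beside 6.75% of all genes tested.

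The counts moved with single libraries. Without the 2 libraries labelled 4 days, which leaves 1 library of that line, 74 genes passed the threshold, 59 higher and 15 lower. Without WT replicate 1 the count was 314, and without WT replicate 3 it was 854. It was 601 without 35S-ASCO replicate 2, 778 without RNAi-ASCO replicate 1 and 562 without RNAi-ASCO replicate 2. Treating the 6 transgenic libraries as a single group, so that the difference between the lines counts as spread, left 203 genes, 160 higher and 43 lower. Dividing by library totals in place of TMM gave 752 higher and 702 lower, and upper-quartile scaling 793 and 656, beside 919 and 465 with TMM. Without the libraries labelled 4 days, the median log2 fold change was 0.415 over the 682 higher genes and -0.282 over the 345 lower genes. Over all 9 libraries these medians were 0.436 and -0.309. The genes were chosen with the 4-day libraries included, so that their direction was largely set by that choice. The part of the age labels in these shifts was not tested beyond the values given, and the hour of harvest and the position of the insertions were not tested.

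**Figure D1:**
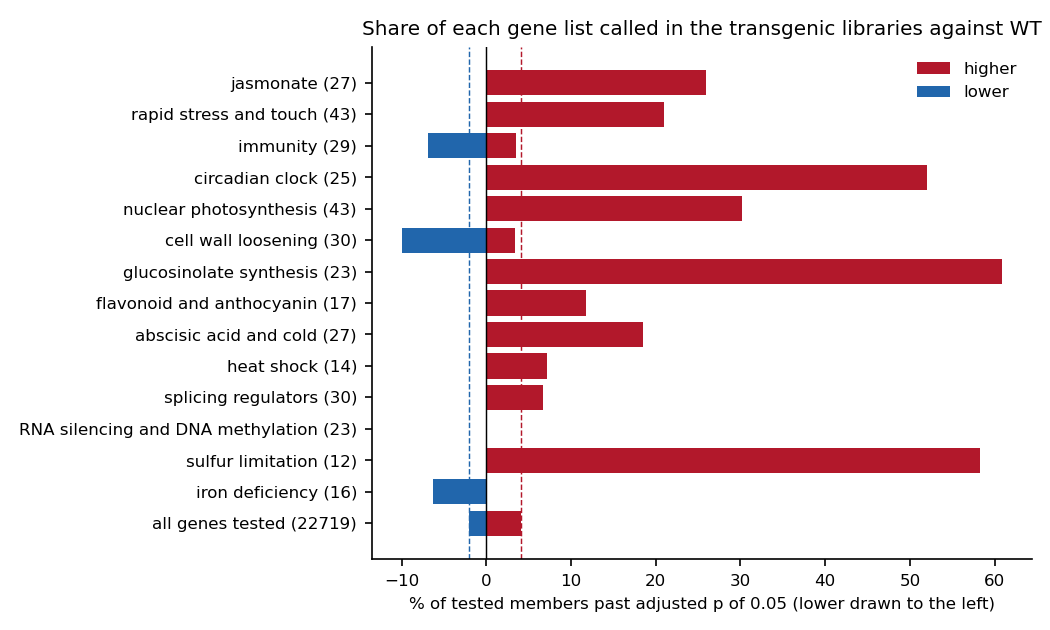
Bars give, for 14 gene lists and for all genes tested, the percentage of tested members (number in brackets) past an edgeR adjusted p of 0.05 in the 6 transgenic libraries against the 3 WT libraries, higher to the right and lower to the left; dashed lines mark all genes. Clock, glucosinolate and sulfur-limitation genes stand at 52.0%, 60.9% and 58.3% of tested members, beside 6.09% of all genes.

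Among 14 lists of pathway genes, the clock, glucosinolate synthesis and sulfur limitation held the largest shares of members past the threshold, as the plot of list shares shows. Immunity, cell wall loosening and iron deficiency held 2, 3 and 1 members lower at the edgeR threshold, and the other 11 lists none. Over all genes tested 2.05% were lower. The 11 lists, with 284 tested members, are grouped by that outcome, so that their lack of lower calls is no separate result. Among their members 8 were lower at an edgeR unadjusted p under 0.05, and 1 was lower by DESeq2. Without the libraries labelled 4 days, the median log2 fold change was 0.597 in the clock, 0.352 in glucosinolate synthesis and 0.56 in sulfur limitation. Over all 9 libraries it was 0.671, 0.399 and 0.548. The median of the iron deficiency list changed from 0.212 to -0.074 without them. Both transgenic groups are compared with the same WT libraries, so that their values against WT are given side by side and are not independent of each other.

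The plant circadian clock consists of genes that repress each other in sequence over the day: the morning MYB factors CCA1 and LHY, then the pseudo-response regulators PRR9, PRR7, PRR5 and TOC1, then the evening complex of ELF4, ELF3 and LUX. Many genes that peak in the evening carry the evening element, a promoter motif to which CCA1 and related MYB factors bind. The upstream sequences of 5 clock genes and 2 glycine-rich RNA-binding protein genes that were without overlap and past the threshold are shown because each holds the core of this element.

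The windows below, cut from the TAIR10.1 genome of RefSeq, hold the 250 bases before the annotated gene start, 5′ to 3′ on the strand of the gene, and capitals mark AATATCT or its reverse complement AGATATT.
PRR7: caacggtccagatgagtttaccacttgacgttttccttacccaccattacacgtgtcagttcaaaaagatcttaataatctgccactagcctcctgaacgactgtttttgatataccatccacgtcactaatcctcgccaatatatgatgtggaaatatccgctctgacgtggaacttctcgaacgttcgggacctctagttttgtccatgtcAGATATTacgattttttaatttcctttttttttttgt
PRR5: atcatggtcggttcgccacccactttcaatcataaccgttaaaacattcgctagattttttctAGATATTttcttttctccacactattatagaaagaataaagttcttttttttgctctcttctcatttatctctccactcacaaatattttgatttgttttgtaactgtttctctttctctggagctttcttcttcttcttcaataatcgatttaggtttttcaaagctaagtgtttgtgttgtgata
PRR3: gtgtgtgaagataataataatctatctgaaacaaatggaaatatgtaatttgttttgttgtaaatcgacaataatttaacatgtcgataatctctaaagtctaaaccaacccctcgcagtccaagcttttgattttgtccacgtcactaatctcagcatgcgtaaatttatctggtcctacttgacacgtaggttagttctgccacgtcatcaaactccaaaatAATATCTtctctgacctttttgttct
TOC1: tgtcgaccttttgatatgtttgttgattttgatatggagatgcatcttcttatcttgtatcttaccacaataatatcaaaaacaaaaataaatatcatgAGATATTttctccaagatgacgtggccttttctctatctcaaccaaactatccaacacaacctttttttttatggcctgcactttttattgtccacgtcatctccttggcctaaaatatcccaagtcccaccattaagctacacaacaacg
PCL1: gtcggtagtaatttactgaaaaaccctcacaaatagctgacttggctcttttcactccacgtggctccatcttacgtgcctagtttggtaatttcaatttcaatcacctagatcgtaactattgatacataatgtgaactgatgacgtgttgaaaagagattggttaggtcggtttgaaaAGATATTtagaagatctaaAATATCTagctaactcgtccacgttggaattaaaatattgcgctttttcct
GRP7: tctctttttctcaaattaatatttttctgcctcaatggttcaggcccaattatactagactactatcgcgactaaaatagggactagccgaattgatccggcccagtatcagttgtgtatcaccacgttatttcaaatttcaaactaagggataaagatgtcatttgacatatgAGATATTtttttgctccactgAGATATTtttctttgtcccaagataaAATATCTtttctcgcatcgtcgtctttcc
CCR1: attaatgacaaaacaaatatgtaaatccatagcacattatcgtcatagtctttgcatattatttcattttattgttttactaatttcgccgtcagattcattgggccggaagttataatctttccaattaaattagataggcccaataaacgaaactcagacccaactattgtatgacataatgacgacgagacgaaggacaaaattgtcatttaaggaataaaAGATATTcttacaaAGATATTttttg
Their positions are PRR7 at chr5:642031-642280 on the minus strand, PRR5 at chr5:8358547-8358796 on the minus strand, PRR3 at chr5:24201416-24201665 on the minus strand, TOC1 at chr5:24674713-24674962 on the plus strand, PCL1 at chr3:17182792-17183041 on the plus strand, GRP7 at chr2:9266558-9266807 on the minus strand, and CCR1 at chr4:18275217-18275466 on the minus strand.

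Of 680 windows of the higher genes, 124 (18.2%) held AATATCT on either strand, beside 2265 of 22520 windows (10.1%) over all genes tested and 36 of 345 (10.4%) over the lower genes. In the clock list 6 of the 11 genes without overlap and past the threshold held it, and so did 12 of the 25 list members tested. GI, AT5G64170, AT3G54500, AT5G06980 and CDF1 held no match in this window, which says nothing of sequence outside it. The other motifs were searched in the same way. CACGTG was found in 9.26% of the higher, 4.35% of the lower and 7.11% of all windows. TTGAC was found in 45.7%, 49.3% and 45.2%, CCGAC in 13.7%, 8.41% and 12.7%, CGCGT in 7.79%, 6.96% and 7.31%, and GCCGCC in 2.06%, 1.16% and 1.93%. Matches of different motifs may share bases, and a match is a description of the sequence, not a bound site.

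Clock genes rose: 13 of 25 tested were higher at the threshold and none lower, with a median log2 fold change of 0.671 over the list beside -0.007 over all genes. In 11 of the 13 the 6 transgenic values lay above the 3 WT values, beside 74.2% of all genes higher at the threshold. GI encodes a large protein that stabilises clock components in light and leads to flowering in long days. For GI, levels were 13.7, 10.2 and 10.9 CPM in WT against 40.4, 32.5 and 27 CPM in 35S-ASCO and 69, 63.6 and 50.5 CPM in the RNAi-labelled libraries. The groups did not overlap, the lowest transgenic library being 35S-ASCO replicate 3, and the mean of the 6 was 4.07 times that of WT (log2 change 1.98 with SE 0.16 and edgeR adjusted p = 0.000633). The libraries labelled RNAi-ASCO were higher than 35S-ASCO (log2 difference -0.87, SE 0.16, edgeR adjusted p = 0.0134).

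PRR7, a pseudo-response regulator that represses the morning genes, showed a shift of similar kind in both lines. In WT, PRR7 was measured at 20.1, 16.1 and 19.1 CPM, in 35S-ASCO at 54.5, 39.4 and 32.7 CPM, and in the RNAi-labelled libraries at 56.4, 50.7 and 45.9 CPM. All 6 transgenic libraries were above 32 CPM and all WT libraries below 21 CPM (log2 change 1.34 with SE 0.16 and edgeR adjusted p = 0.00395). Against WT the changes were 1.2 in 35S-ASCO and 1.47 in the RNAi-labelled libraries, and the lines did not differ at the threshold (edgeR adjusted p = 0.372). PRR5 (log2 change 1.23, edgeR adjusted p = 0.0194), PRR3 (log2 change 0.42, edgeR adjusted p = 0.0167) and TOC1 (log2 change 0.37, edgeR adjusted p = 0.00604) rose as well, TOC1 by the smallest amount of the 4.

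ELF4, a small protein of the evening complex, was higher by 1.6-fold. In WT, ELF4 was measured at 38.4, 35.6 and 33.1 CPM, in 35S-ASCO at 53, 54 and 48.8 CPM, and in the RNAi-labelled libraries at 67.8, 62.4 and 56.1 CPM. WT values were tight and lay under every transgenic value (log2 change 0.67 with SE 0.071 and edgeR adjusted p = 0.00237). PCL1, a MYB-like factor of the same complex (known also as LUX), ranged over 25.5 to 34 CPM in WT and 36.1 to 54.2 CPM (median 42.8) in the 6 transgenic libraries (log2 change 0.6 with SE 0.087 and edgeR adjusted p = 0.00717), and the RNAi-labelled libraries lay above 35S-ASCO (edgeR adjusted p = 0.0281). ELF3, the scaffold of the complex, changed by 0.06 on the log2 scale (edgeR adjusted p = 0.377).

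AT5G64170, which was placed in the clock list by its locus and which RefSeq describes only as a dentin sialophosphoprotein-like protein, also belongs to the genes with the widest gaps. AT5G64170 stood at 5.84, 5.76 and 4.71 CPM in WT, at 14.7, 11.7 and 10.5 CPM in 35S-ASCO and at 21.3, 17.8 and 12.5 CPM in the RNAi-labelled libraries. Its lowest transgenic value was 1.79 times its highest WT value (log2 change 1.42 with SE 0.18 and edgeR adjusted p = 0.00465). CDF1, a DOF factor that represses flowering genes and is degraded through FKF1 and GI, ranged over 1.58 to 2.02 CPM in WT and 3.14 to 6.3 CPM (median 3.69) in the 6 transgenic libraries (log2 change 1.25 with SE 0.2 and edgeR adjusted p = 0.0107). FKF1, a blue-light F-box protein, passed the threshold with overlapping groups (log2 change 0.85, edgeR adjusted p = 0.0315), as did AT5G52660 (log2 change 0.35, edgeR adjusted p = 0.0495), and AT3G54500 (log2 change 0.68, edgeR adjusted p = 0.0244) and AT5G06980 (log2 change 1.5, edgeR adjusted p = 0.0321) passed it without overlap.

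The morning genes were low in every library, and neither CCA1 nor LHY passed the threshold. For CCA1, levels were 0.955, 0.657 and 0.643 CPM in WT against 4.17, 1.79 and 0.949 CPM in 35S-ASCO and 1.52, 1.83 and 1.4 CPM in the RNAi-labelled libraries. CCA1 spread widely within 35S-ASCO, whose replicate 3 fell among the WT values (log2 change 1.41 with SE 0.44 and edgeR adjusted p = 0.0885). LHY stayed between 1.49 and 2.91 CPM in all 9 libraries (log2 fold change 0.13, edgeR adjusted p = 0.717). The count of clock genes past the threshold was 4 without the libraries labelled 4 days, 6 without WT replicate 1 and 6 with the transgenic libraries as a single group, and GI, PRR7, ELF4 and AT5G64170 passed in every alternative fit run.

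**Figure D2:**
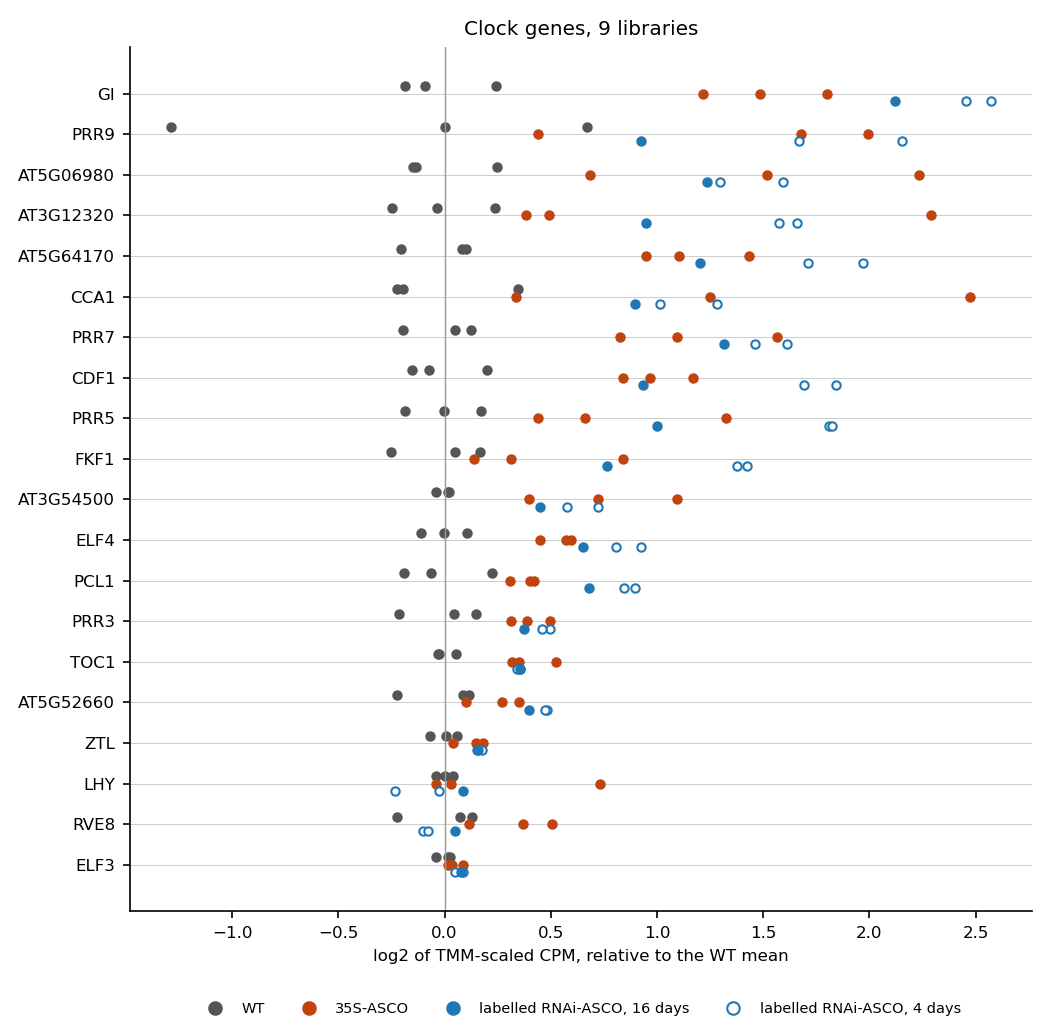
Each row is a clock gene and each point a library, drawn as log2 of its TMM-scaled CPM relative to the WT mean; open circles are RNAi-ASCO replicates 1 and 2, labelled 4 days. GI, PRR7, ELF4 and TOC1 show all 6 transgenic points to the right of the 3 WT points, while LHY and ELF3 show mixed points near 0.

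GRP7 and CCR1 encode the glycine-rich RNA-binding proteins AtGRP7 and AtGRP8, which cycle with the clock, respond to cold and regulate alternative splicing of their own and other transcripts. They were the 2 of 30 splicing regulators past the threshold, both higher. In WT, GRP7 was measured at 2090, 2000 and 1600 CPM, in 35S-ASCO at 2720, 2300 and 2180 CPM, and in the RNAi-labelled libraries at 2720, 2770 and 2750 CPM. Every transgenic library was above every WT library, by a gap of 1.05-fold (log2 change 0.44 with SE 0.095 and edgeR adjusted p = 0.0277). For CCR1 the ranges were 158 to 196 CPM in WT and 207 to 292 CPM (median 264) in the 6 transgenic libraries (log2 change 0.47 with SE 0.088 and edgeR adjusted p = 0.018). Their upstream windows, printed above, held AATATCT 3 times and 2 times. The list as a whole had a median log2 fold change of -0.021, and its share past the threshold, 6.67%, was near the 6.09% of all genes. AT1G76940, listed as a nuclear speckle RNA-binding protein gene, lay between 18.8 and 21.0 CPM in all 9 libraries (log2 fold change -0.05, edgeR adjusted p = 0.579). Neither GRP7 nor CCR1 passed the threshold without the libraries labelled 4 days, without WT replicate 1 or with the transgenic libraries as a single group. GRP7 also missed it without WT replicate 3, 35S-ASCO replicate 2, RNAi-ASCO replicate 1 or RNAi-ASCO replicate 2.

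Sulfur-limitation genes rose: 7 of 12 tested were higher and none lower, with a median log2 fold change of 0.548. Plants short of sulfur raise sulfate reduction, through the APS reductases APR1, APR2 and APR3, and a group of small LSU (response to low sulfur) proteins. LSU3, which is not a member of the list and is named for the width of its gap, changed most of the LSU genes. The WT libraries held 5.73, 5.47 and 3.84 CPM of LSU3, the 35S-ASCO libraries 25.4, 19.3 and 20.4 CPM, and the RNAi-labelled libraries 14.4, 12.4 and 14 CPM. All 6 transgenic values were at least 2.16 times the highest WT value (log2 change 1.79 with SE 0.14 and edgeR adjusted p = 0.000606), and 35S-ASCO lay above the RNAi-labelled libraries (log2 difference 0.68, SE 0.14, edgeR adjusted p = 0.0224). LSU1, a list member and its neighbour on chromosome 3, ranged over 4.05 to 12.6 CPM in WT and 17.1 to 27.9 CPM (median 22) in the 6 transgenic libraries (log2 change 1.3 with SE 0.28 and edgeR adjusted p = 0.027). LSU2, a list member on chromosome 5, rose as well. For LSU2, levels were 10, 10.9 and 7 CPM in WT against 23.6, 23.4 and 23.8 CPM in 35S-ASCO and 17.6, 16.7 and 18.1 CPM in the RNAi-labelled libraries. Its 35S-ASCO values lay above all others and its WT values below all others (log2 change 1.12 with SE 0.12 and edgeR adjusted p = 0.00237).

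APR1, which reduces activated sulfate to sulfite, rose by 1.98-fold on the mean. APR1 stood at 101, 96.2 and 109 CPM in WT, at 243, 209 and 194 CPM in 35S-ASCO and at 195, 189 and 183 CPM in the RNAi-labelled libraries. The gap between the groups was 1.68-fold (log2 change 0.98 with SE 0.074 and edgeR adjusted p = 0.000517), and the lines did not differ at the threshold (edgeR adjusted p = 0.2). SHM7, a serine hydroxymethyltransferase of the list, ranged over 76.6 to 97.3 CPM in WT and 105 to 208 CPM (median 153) in the 6 transgenic libraries (log2 change 0.82 with SE 0.086 and edgeR adjusted p = 0.00237). It was higher in 35S-ASCO than in the RNAi-labelled libraries (log2 difference 0.77, SE 0.095, edgeR adjusted p = 0.00197), as was ATSDI1, a tetratricopeptide repeat protein induced by sulfur deficiency (edgeR adjusted p = 0.0108). APR3 and APR2 passed the threshold with smaller changes (log2 change 0.39, edgeR adjusted p = 0.0107 and log2 change 0.5, edgeR adjusted p = 0.0234).

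Not all genes of the list followed, and 1 member was lower by DESeq2 and in the edgeR fits without 35S-ASCO replicate 1 or 3. SULTR1;2, a sulfate uptake transporter of roots, was below WT in all 6 transgenic libraries but missed the threshold (log2 change -0.33, edgeR adjusted p = 0.12), and SULTR1;1 overlapped WT (log2 change -0.51, edgeR adjusted p = 0.46). BGLU28, a beta-glucosidase strongly induced by sulfur deficiency, was uneven within 35S-ASCO, at 9.63, 10.1 and 19.4 CPM, against 8.92, 7.84 and 3.04 CPM in WT (edgeR adjusted p = 0.554). AT1G04770, a tetratricopeptide repeat protein outside the list, had the smallest p of the 1027 genes after AT1G67105. In WT, AT1G04770 was measured at 31.4, 31.6 and 33.2 CPM, in 35S-ASCO at 91, 76.2 and 71.3 CPM, and in the RNAi-labelled libraries at 64.7, 63.4 and 64.3 CPM. Every transgenic value was at least 1.91 times the highest of them (log2 change 1.15 with SE 0.074 and edgeR adjusted p = 0.00028). LSU3, LSU2, APR1 and AT1G04770 passed in every alternative fit run, while the list's count was 4 without the libraries labelled 4 days and 2 with the transgenic libraries as a single group.

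Glucosinolates are sulfur-rich defence compounds of the cabbage order, made from amino acids by a chain of cytochrome P450 enzymes, a C-S lyase, glucosyltransferases and sulfotransferases. At the threshold, 14 of 23 synthesis genes tested were higher and none lower, with a median log2 fold change of 0.399. At an edgeR unadjusted p under 0.05, 18 were higher and 1 lower. By line, 3 of the 23 passed the edgeR threshold against WT in 35S-ASCO and 17 in the RNAi-labelled libraries, 2 of which are labelled 4 days. The lines differed at the threshold in 5. Of the 14, 12 were without overlap, beside 74.2% of all genes higher at the threshold. CYP79F2 converts chain-elongated methionine to aldoximes. The WT libraries held 14.3, 15.6 and 15.4 CPM of CYP79F2, the 35S-ASCO libraries 19.9, 22.4 and 16.9 CPM, and the RNAi-labelled libraries 35.2, 38.6 and 37.2 CPM. Both transgenic groups were above WT, 35S-ASCO by little and the RNAi-labelled libraries by more (log2 change 0.83 with SE 0.083 and edgeR adjusted p = 0.00209), and the lines differed (log2 difference -0.91, SE 0.091, edgeR adjusted p = 0.000576). In 35S-ASCO alone CYP79F2 missed the threshold (edgeR adjusted p = 0.0751). Its neighbour CYP79F1 passed with overlapping groups (log2 change 0.7, edgeR adjusted p = 0.0391), and 2.66% of the 50-base windows of CYP79F2 recur elsewhere in the genome.

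BAT5, the transporter that brings precursor keto acids into the plastid, ranged over 30.1 to 37.3 CPM in WT and 38.3 to 67.8 CPM (median 54.7) in the 6 transgenic libraries (log2 change 0.73 with SE 0.11 and edgeR adjusted p = 0.00902). It too missed the threshold in 35S-ASCO alone (edgeR adjusted p = 0.0774). UGT74B1, the glucosyltransferase that follows the C-S lyase, showed a small but even shift. For UGT74B1, levels were 64.2, 62.8 and 62.4 CPM in WT against 82.4, 79.5 and 71.6 CPM in 35S-ASCO and 89.2, 84.2 and 79.4 CPM in the RNAi-labelled libraries. The highest WT value was 64.2 CPM and the lowest transgenic value 71.6 CPM (log2 change 0.36 with SE 0.056 and edgeR adjusted p = 0.00932). SUR1, the C-S lyase (log2 change 0.39, edgeR adjusted p = 0.0114), CYP79B2 of the tryptophan branch (log2 change 0.37, edgeR adjusted p = 0.025), and the sulfotransferases SOT17 (log2 change 0.4, edgeR adjusted p = 0.0263) and SOT18 (log2 change 0.5, edgeR adjusted p = 0.0114) rose by less than 2-fold. FMO GS-OX1, which oxidises the side chain, rose by 2.02-fold on the mean (log2 change 0.99, edgeR adjusted p = 0.0104).

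Among the MYB factors of the pathway, MYB51 of the indolic branch was without overlap and past the threshold (log2 change 0.82, edgeR adjusted p = 0.00939), and MYB29 of the aliphatic branch passed with 35S-ASCO replicate 3, at 7.49 CPM, below the highest WT value of 8.53 CPM (log2 change 0.94, edgeR adjusted p = 0.0333). Within the list, the RNAi-labelled libraries lay farther from WT than 35S-ASCO in 18 of 23 genes. That is near their share among the 682 higher genes, 488 of 682. In the sulfur list 35S-ASCO lay farther in 10 of 12. The share over all genes tested was not computed. The glucosinolate count was 2 without the libraries labelled 4 days, 3 without WT replicate 1, 8 without 35S-ASCO replicate 2, 8 without RNAi-ASCO replicate 2, and 3 with the transgenic libraries as a single group.

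**Figure D3:**
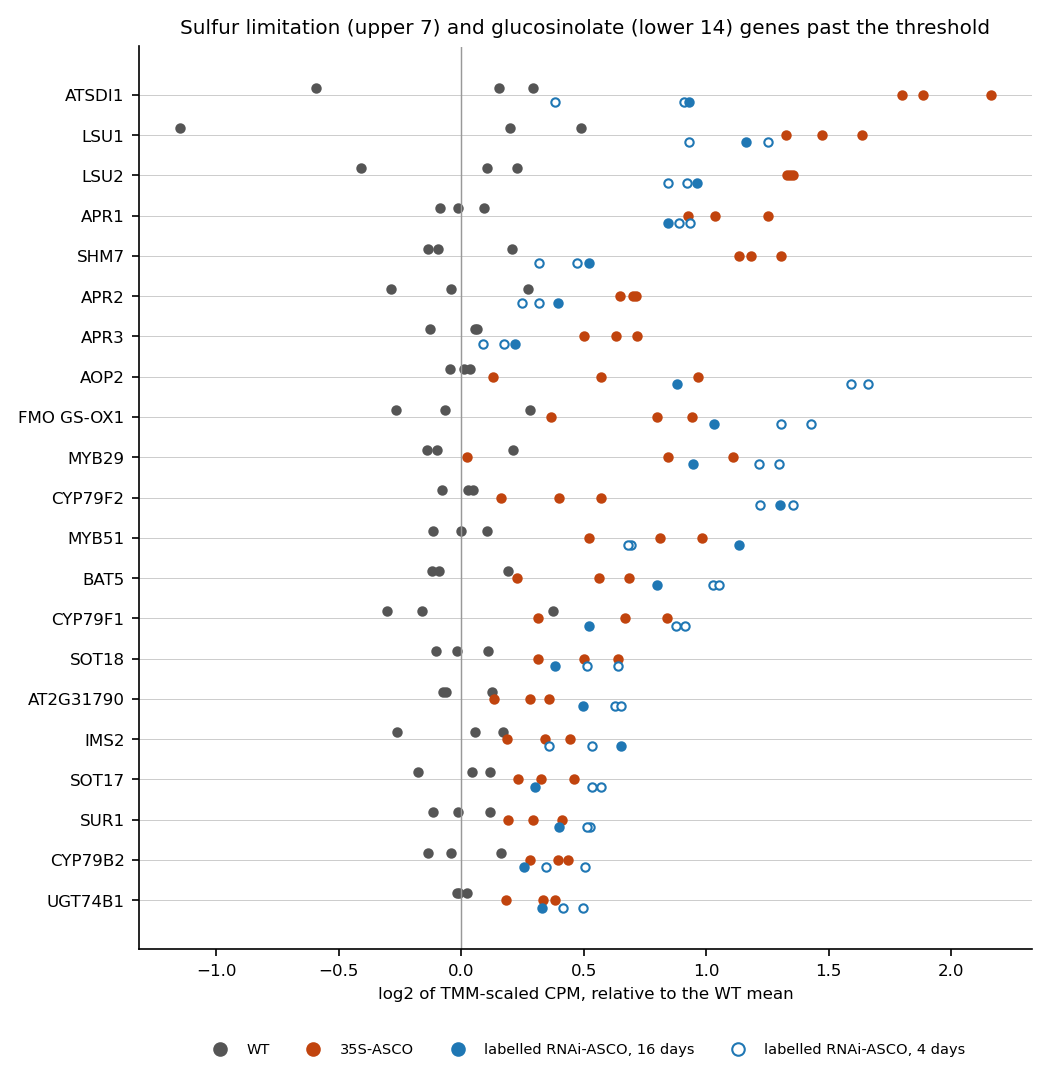
Rows are the sulfur-limitation and glucosinolate genes past the threshold and points are libraries, as log2 of TMM-scaled CPM relative to the WT mean; open circles are RNAi-ASCO replicates 1 and 2, labelled 4 days. The 35S-ASCO points lead in the sulfur genes LSU1, LSU2 and SHM7, and the points labelled RNAi-ASCO lead in CYP79F2 and BAT5.

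Light-harvesting genes were higher among the nuclear genes of photosynthesis. Of 43 tested, 13 (30.2%, beside 6.09% of all genes) were higher and none lower, with a median log2 fold change of 0.187. Against WT by line, 0 of the 43 passed the edgeR threshold in 35S-ASCO and 21 in the RNAi-labelled libraries, 2 of which are labelled 4 days, and 2 of the 43 differed between the lines at the threshold. Of the 13, 9 encode chlorophyll-binding antenna proteins and 4 encode photosystem subunits. The changes ran from 0.24 in PSAH2, a photosystem I subunit, to 1.11 in LHCB2.1, a photosystem II antenna protein, on the log2 scale. LHCB3 is an antenna protein of photosystem II. In WT, LHCB3 was measured at 691, 468 and 510 CPM, in 35S-ASCO at 1150, 818 and 759 CPM, and in the RNAi-labelled libraries at 1140, 1170 and 1000 CPM. All 6 transgenic values, from 759 CPM, lay above all WT values, with edgeR adjusted p = 0.0733 for 35S-ASCO alone (log2 change 0.85 with SE 0.16 and edgeR adjusted p = 0.016). LHCA4, of the photosystem I antenna, ranged over 723 to 993 CPM in WT and 1060 to 1650 CPM (median 1420) in the 6 transgenic libraries (log2 change 0.73 with SE 0.14 and edgeR adjusted p = 0.0216). For LHB1B2, an Lhcb1 gene, the ranges were 1670 to 2320 CPM in WT and 2330 to 3690 CPM (median 3460) in the 6 transgenic libraries (log2 change 0.72 with SE 0.14 and edgeR adjusted p = 0.0214), and 16.0% of its 50-base windows recur elsewhere, so that its counts may be incomplete.

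The Rubisco small subunit gene RBCS1A, by contrast, overlapped WT, with 10700, 9220 and 10700 CPM in WT and 8450 to 9910 CPM in the transgenic libraries (log2 fold change -0.12, edgeR adjusted p = 0.327). WT replicate 1 held the highest WT value of LHCB3, LHCA4 and LHB1B2. The count of photosynthesis genes past the threshold was 14 without it, 1 without WT replicate 2, 0 without WT replicate 3, 1 without RNAi-ASCO replicate 2, 3 without RNAi-ASCO replicate 1, 7 without RNAi-ASCO replicate 3 and 4 without 35S-ASCO replicate 2. It was 0 without the libraries labelled 4 days and 0 with the transgenic libraries as a single group, while DESeq2 on all libraries gave 19, and 25 members were higher at an unadjusted p under 0.05. ELIP1, an early light-induced protein that binds chlorophyll under strong light, stands outside the list and was low in every library. ELIP1 stood at 1.91, 1.71 and 1.11 CPM in WT, at 3.51, 3.81 and 3.45 CPM in 35S-ASCO and at 5.59, 4.28 and 3.36 CPM in the RNAi-labelled libraries. Each transgenic value was at least 1.75 times the highest WT value (log2 change 1.35 with SE 0.2 and edgeR adjusted p = 0.00863).

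Genes of rapid stress and touch responses were higher in 9 of 43 tested (20.9%, beside 6.09% of all genes), with a median log2 fold change of 0.877. Without 35S-ASCO replicate 1 the median was 0.506 and 8 were higher. The median was 0.968 without 35S-ASCO replicate 3 and 0.695 without the libraries labelled 4 days. CML41, a calmodulin-like protein, ranged over 0.208 to 0.698 CPM in WT and 1.29 to 4.2 CPM (median 2) in the 6 transgenic libraries (log2 change 2.2 with SE 0.45 and edgeR adjusted p = 0.0235). WRKY70, a factor that links salicylate and jasmonate responses, was higher in every transgenic library. For WRKY70, levels were 43.4, 58.1 and 55.6 CPM in WT against 140, 187 and 100 CPM in 35S-ASCO and 144, 87.4 and 164 CPM in the RNAi-labelled libraries. The spread within each line was wide, but the gap to WT was 1.51-fold (log2 change 1.38 with SE 0.23 and edgeR adjusted p = 0.0119).

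ERF5 (log2 change 0.89, edgeR adjusted p = 0.0269), STZ, a zinc-finger repressor (log2 change 1.75, edgeR adjusted p = 0.0319), WRKY33 (log2 change 1.11, edgeR adjusted p = 0.0314) and MPK3, a stress-activated kinase (log2 change 0.6, edgeR adjusted p = 0.0385), were also without overlap. The gap of ERF5 was minimal, with 8.26 CPM in 35S-ASCO replicate 3 against 8.23 CPM in WT replicate 1. In 35S-ASCO alone ERF5 missed the threshold (edgeR adjusted p = 0.198). In WRKY33 the 35S-ASCO libraries lay between 54.7 and 147 CPM while the WT libraries stood at 45.7, 45.5 and 42.3 CPM. The count of this list was 1 without the libraries labelled 4 days, 1 without WT replicate 1, 3 without WT replicate 2 or 3, 1 without 35S-ASCO replicate 2, 2 without RNAi-ASCO replicate 1, 3 without RNAi-ASCO replicate 2 and 17 without 35S-ASCO replicate 3. It was 1 with the transgenic libraries as a single group. WRKY70 lost its call without WT replicate 1, CML41 in 5 of 20 alternative fits and ERF5 in 7.

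Of 27 jasmonate genes tested, 7 (25.9%, beside 6.09% of all genes) were higher, with a median log2 fold change of 0.398 over the list. By line, 10 of the 27 passed the edgeR threshold against WT in 35S-ASCO and 5 in the RNAi-labelled libraries. The lines differed at the threshold in 12 of the 27, beside 6.75% of all genes tested, and 35S-ASCO lay farther from WT in 22. Of the 7, 4 were without overlap, ORA47, CYP94C1, JAZ1 and AOC4, beside 74.2% of all genes higher at the threshold. Of the whole list 22.2% was without overlap, beside 10.4% of all genes. ORA47, an AP2/ERF factor that activates jasmonate and abscisic acid synthesis genes, had the largest fold of the 682 higher genes after AT1G67105. The WT libraries held 0.367, 0.297 and 0.625 CPM of ORA47, the 35S-ASCO libraries 12.5, 6.11 and 3.26 CPM, and the RNAi-labelled libraries 5.23, 6.81 and 1.88 CPM. Its WT values were below 0.63 CPM and its transgenic values ran from 1.88 to 12.5 CPM (log2 change 3.77 with SE 0.63 and edgeR adjusted p = 0.0114). The ORA47 model overlaps an annotated model on the opposite strand. CYP94C1 oxidises jasmonoyl-isoleucine and so inactivates it. In WT, CYP94C1 was measured at 1.54, 1.73 and 1.89 CPM, in 35S-ASCO at 3.42, 3.64 and 2.83 CPM, and in the RNAi-labelled libraries at 2.79, 2.69 and 2.89 CPM. The WT and transgenic values were separated by a gap of 1.41-fold (log2 change 0.8 with SE 0.13 and edgeR adjusted p = 0.00952). AOC4, an allene oxide cyclase of jasmonate synthesis, rose by 1.16-fold (log2 change 0.22 with SE 0.043 and edgeR adjusted p = 0.0212). JAZ6, AOS and AOC2 passed the threshold with the RNAi-labelled libraries overlapping WT, and the lines differed in each (edgeR adjusted p = 0.00334, 0.00538 and 0.00968). The count was 1 without the libraries labelled 4 days, 2 without WT replicate 1, 4 without 35S-ASCO replicate 2 and 2 with the transgenic libraries as a single group. ORA47 lost its call without WT replicate 1 and without the libraries labelled 4 days, where its log2 change was 3.12, CYP94C1 in the latter fit, and AOC4 in 5 of 20 alternative fits.

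Genes of abscisic acid and cold responses were higher in 5 of 27 tested (18.5%, beside 6.09% of all genes), all without overlap (22.2% of the list was without overlap, beside 10.4% of all genes), with a median log2 fold change of 0.494. LTI78, also called RD29A, encodes a hydrophilic protein induced by cold and drought. LTI78 stood at 35.9, 37.6 and 43 CPM in WT, at 94.2, 79.5 and 76.4 CPM in 35S-ASCO and at 172, 84 and 73.9 CPM in the RNAi-labelled libraries. RNAi-ASCO replicate 1 stood well above the other 5 transgenic libraries, which lay between 73.9 and 94.2 CPM, still above all WT values (log2 change 1.3 with SE 0.24 and edgeR adjusted p = 0.0174). The adjacent dehydrin genes COR47 and ERD10 on chromosome 1 shifted by less. COR47 ranged over 297 to 331 CPM in WT and 375 to 427 CPM (median 394) in the 6 transgenic libraries (log2 change 0.32 with SE 0.057 and edgeR adjusted p = 0.0158), and ERD10 over 81.6 to 99.7 CPM in WT and 115 to 156 CPM (median 137) in the 6 transgenic libraries (log2 change 0.56 with SE 0.1 and edgeR adjusted p = 0.0163). ABF3, a bZIP factor of abscisic acid signalling, passed too (log2 change 0.48 with SE 0.089 and edgeR adjusted p = 0.0163), as did GolS2, a galactinol synthase (log2 change 1.37, edgeR adjusted p = 0.0314). None of the 5 passed without WT replicate 1 with edgeR, 1 passed without the libraries labelled 4 days and 3 with the transgenic libraries as a single group. At an unadjusted p under 0.05 on all libraries 15 of the 27 were higher, and DESeq2 called 10.

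MYBL2 and PAP1, the MYB factors that repress and activate anthocyanin synthesis, were the 2 of 17 flavonoid genes past the threshold (11.8%, beside 6.09% of all genes). MYBL2 stood at 11.5, 12.9 and 12 CPM in WT, at 29, 20.5 and 17.5 CPM in 35S-ASCO and at 34.7, 41 and 31.9 CPM in the RNAi-labelled libraries. MYBL2 was higher in every transgenic library, more so in the RNAi-labelled libraries (log2 change 1.22 with SE 0.15 and edgeR adjusted p = 0.00465, difference between the lines edgeR adjusted p = 0.0376). PAP1 was low, at 0.184 to 0.328 CPM in WT and 0.464 to 2.11 CPM (median 1.16) in the 6 transgenic libraries (log2 change 2.03 with SE 0.48 and edgeR adjusted p = 0.0382). The list's median log2 fold change was -0.015. PAP1 lost its call in 9 of 20 alternative fits, 6 of them without a single library, and MYBL2 lost it without the libraries labelled 4 days, where the list's count was 0. HSFB2A, a repressor among heat shock factors, was the single heat shock gene of 14 tested to pass (log2 change 0.8 with SE 0.16 and edgeR adjusted p = 0.0238). That share, 7.14%, was near the 6.09% of all genes, and the call was lost in 6 of 20 alternative fits.

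The other lists gave few calls. Immunity genes held 1 higher, YLS9, and 2 lower, CERK1 and WAK1, of 29 tested (10.3%, beside 6.09% of all genes). All 3 overlapped between the groups. None of the 3 passed without WT replicate 1, without the libraries labelled 4 days or with the transgenic libraries as a single group. Iron-deficiency genes held 1 lower of 16, FRU, the bHLH factor of iron uptake (log2 change -0.46, edgeR adjusted p = 0.0449), a share of 6.25% that was near the 6.09% of all genes. Without WT replicate 2 this list held 6 higher and 2 lower, and its median log2 fold change was 0.851 in place of 0.212. None of 23 RNA silencing and DNA methylation genes passed with edgeR or with DESeq2, and at an unadjusted p under 0.05 there were 2 higher and 2 lower. With edgeR, 3 were lower without WT replicate 2, and 1 was higher and 1 lower without WT replicate 3.

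Cell wall loosening genes had 1 higher and 3 lower of 30 tested (13.3%, beside 6.09% of all genes), with a median log2 fold change of -0.145. XTH33, a xyloglucan-modifying enzyme, was low in WT and lower in the transgenic libraries. For XTH33, levels were 1.8, 2.41 and 3.23 CPM in WT against 0.776, 1.29 and 1.29 CPM in 35S-ASCO and 0.327, 0.24 and 0.723 CPM in the RNAi-labelled libraries. The highest transgenic value was 1.29 CPM and the lowest WT value 1.8 CPM (log2 change -1.83 with SE 0.3 and edgeR adjusted p = 0.0109). XTH15 (log2 change -0.8, edgeR adjusted p = 0.0434) and the expansin EXPA15 (log2 change -0.29, edgeR adjusted p = 0.0481) were lower too, whereas XTH19 was higher (log2 change 0.44 with SE 0.077 and edgeR adjusted p = 0.0137) and, among these, differed between the lines (log2 difference 0.4, SE 0.086, edgeR adjusted p = 0.0228). The number lower was 1 without any one of the WT replicates, 35S-ASCO replicate 2 or RNAi-ASCO replicate 2, and 0 without the libraries labelled 4 days or with the transgenic libraries as a single group, where XTH33 was lost as well. XTH15 lost its call in 9 of 20 alternative fits, and XTH19 in 4.

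**Figure D4:**
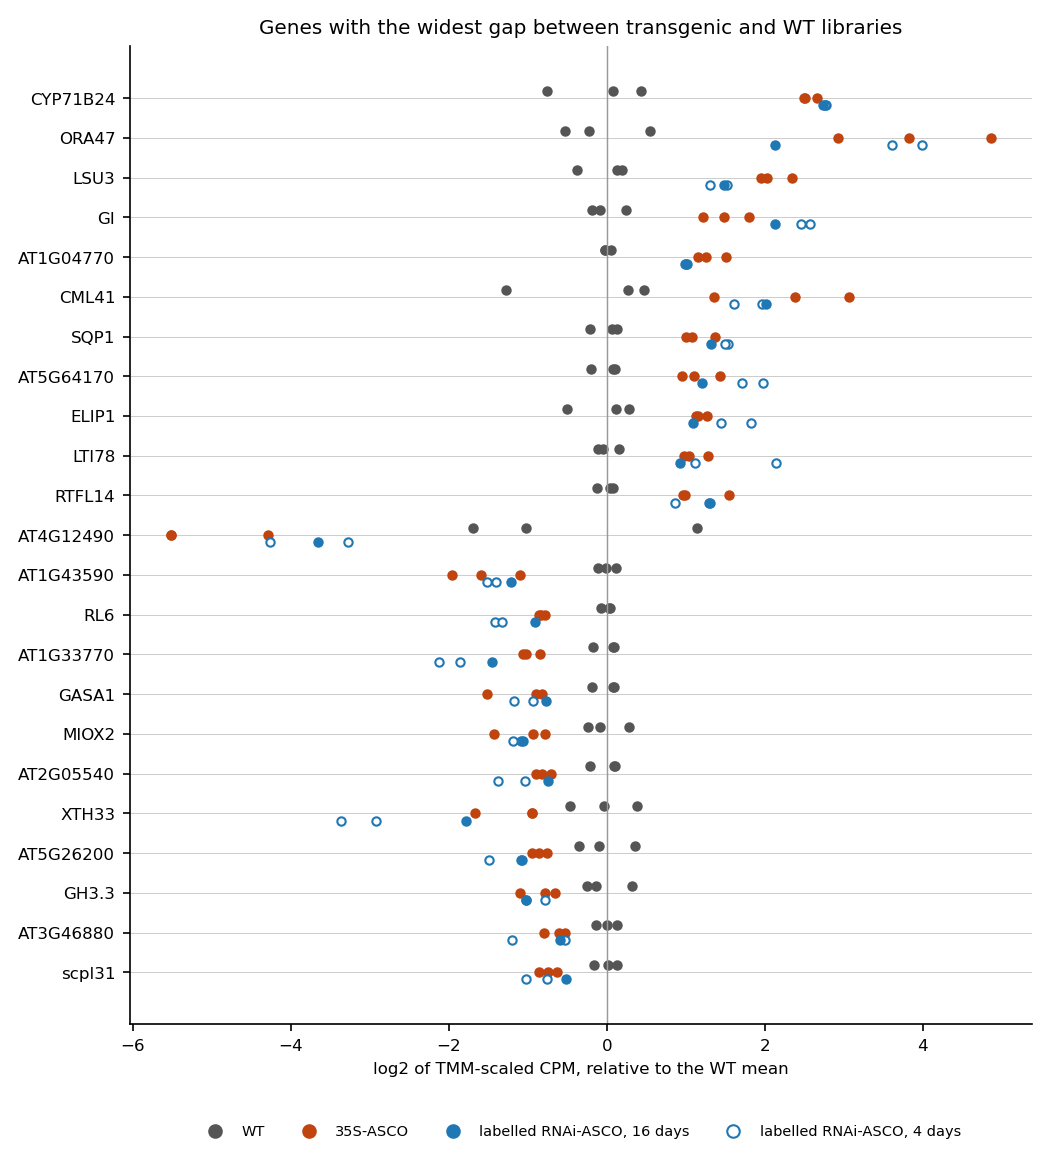
Each row is a gene named for the width of the gap between its 6 transgenic and 3 WT values, with AT1G67105 left out because its range would compress the axis, and each point is a library, as log2 of TMM-scaled CPM relative to the WT mean. In CYP71B24 the 6 transgenic points lie close together far to the right of WT, in ORA47 they spread widely, and in AT4G12490 WT replicate 3 lies far to the right of the other WT points.

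Outside the lists, the widest gap of the 1027 genes belonged to CYP71B24, a cytochrome P450. In WT, CYP71B24 was measured at 3.01, 3.84 and 1.69 CPM, in 35S-ASCO at 16.1, 18 and 16.2 CPM, and in the RNAi-labelled libraries at 19.4, 19.3 and 19 CPM. The transgenic values were even within and between the lines, the lowest of them at 4.18 times the highest WT value and their mean at 6.33 times the WT mean (log2 change 2.64 with SE 0.2 and edgeR adjusted p = 0.000517). Against WT the changes were 2.54 in 35S-ASCO and 2.73 in the RNAi-labelled libraries, and the lines did not differ at the threshold (log2 difference -0.2, SE 0.19, edgeR adjusted p = 0.585). It lies on chromosome 3 beside CYP71B3, singled out after its values were seen, which ranged over 8.59 to 10 CPM in WT and 13.2 to 17.7 CPM (median 16) in the 6 transgenic libraries (log2 change 0.72 with SE 0.1 and edgeR adjusted p = 0.00717). Among 209 genes whose product name is cytochrome P450, 27 were higher and 2 lower, which is 13.9% beside 6.09% of all genes. The number higher was 10 without WT replicate 1, 16 without 35S-ASCO replicate 2, 13 without RNAi-ASCO replicate 2, 4 without the libraries labelled 4 days and 7 with the transgenic libraries as a single group.

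SQP1, described in RefSeq as an FAD/NAD(P)-binding oxidoreductase, rose by 2.48-fold. SQP1 stood at 6.65, 5.47 and 6.98 CPM in WT, at 12.7, 16.4 and 13.4 CPM in 35S-ASCO and at 18.5, 18 and 15.9 CPM in the RNAi-labelled libraries. The WT values lay below 7 CPM and the transgenic values above 12 CPM (log2 change 1.31 with SE 0.11 and edgeR adjusted p = 0.00103). RTFL14, a ROTUNDIFOLIA-like peptide gene of a family that limits cell proliferation in leaves, ranged over 0.734 to 0.851 CPM in WT and 1.46 to 2.35 CPM (median 1.78) in the 6 transgenic libraries (log2 change 1.18 with SE 0.2 and edgeR adjusted p = 0.0114). CYP71B24 and SQP1 passed in every alternative fit run, and RTFL14 did not pass without the libraries labelled 4 days or without WT replicate 1.

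On the lower side, 12 genes were named for the width of their gap. GASA1 encodes a small secreted peptide of the gibberellin-regulated GASA family. The WT libraries held 98.8, 99.9 and 82.3 CPM of GASA1, the 35S-ASCO libraries 32.6, 52.9 and 50.1 CPM, and the RNAi-labelled libraries 41.3, 49 and 55 CPM. Its WT mean was 2 times the transgenic mean, and 35S-ASCO replicate 1 was the lowest library (log2 change -1.0 with SE 0.14 and edgeR adjusted p = 0.00713). GH3.3 conjugates auxin to amino acids and is itself induced by auxin. For GH3.3, levels were 18.5, 17 and 25.4 CPM in WT against 11.8, 9.5 and 12.9 CPM in 35S-ASCO and 10, 11.8 and 10 CPM in the RNAi-labelled libraries. No transgenic value reached 13 CPM and no WT value fell below 17 CPM (log2 change -0.88 with SE 0.13 and edgeR adjusted p = 0.00902).

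MIOX2, a myo-inositol oxygenase that opens a route to cell wall sugars, ranged over 19.1 to 27.3 CPM in WT and 8.34 to 13.1 CPM (median 10.7) in the 6 transgenic libraries (log2 change -1.08 with SE 0.14 and edgeR adjusted p = 0.00501). RL6, a RAD-like MYB gene, was even in WT and in 35S-ASCO and less so in the RNAi-labelled libraries. In WT, RL6 was measured at 4.15, 4.14 and 3.86 CPM, in 35S-ASCO at 2.36, 2.27 and 2.23 CPM, and in the RNAi-labelled libraries at 1.52, 1.62 and 2.15 CPM. WT lay above 3.8 CPM and the transgenic libraries below 2.4 CPM (log2 change -1.0 with SE 0.12 and edgeR adjusted p = 0.00413). scpl31, a serine carboxypeptidase-like gene, ranged over 39.6 to 48.4 CPM in WT and 21.8 to 31 CPM (median 26.2) in the 6 transgenic libraries (log2 change -0.75 with SE 0.1 and edgeR adjusted p = 0.00579), with equal changes of -0.75 in each line.

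AT4G12490, of the lipid-transfer protein superfamily, had the largest drop of these 12. AT4G12490 stood at 1.69, 2.69 and 12 CPM in WT, at 0.119, 0.28 and 0.119 CPM in 35S-ASCO and at 0.565, 0.284 and 0.431 CPM in the RNAi-labelled libraries. WT replicate 3 stood at 12 CPM, well above the other WT libraries, and all 6 transgenic libraries were below 0.6 CPM (log2 change -4.47 with SE 0.58 and edgeR adjusted p = 0.00494). Its neighbour AT4G12500, singled out after its values were seen, ranged over 0.808 to 4.29 CPM in WT and 0.109 to 0.28 CPM (median 0.169) in the 6 transgenic libraries (log2 change -3.56 with SE 0.52 and edgeR adjusted p = 0.00717), and 6.76% and 5.43% of the 50-base windows of these genes recur elsewhere. Without WT replicate 3 the log2 change of AT4G12490 was -3.16 and the call was kept (edgeR adjusted p = 0.00342), and without the libraries labelled 4 days the call was lost.

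AT1G33770, a protein kinase gene, was lower in both lines and lowest in the RNAi-labelled libraries (log2 change -1.35 with SE 0.16 and edgeR adjusted p = 0.00413; between the lines, log2 difference 0.79, SE 0.2, edgeR adjusted p = 0.0483). AT2G05540, a glycine-rich protein gene (log2 change -0.91, edgeR adjusted p = 0.00493), AT5G26200, a mitochondrial carrier gene (log2 change -1.02, edgeR adjusted p = 0.00907), AT3G46880, of unknown product (log2 change -0.7, edgeR adjusted p = 0.0269), and AT1G43590, a pseudogene (log2 change -1.4, edgeR adjusted p = 0.00494), complete the 12 lower genes named for their gap. Of the genes named for gap or list, 11 of 49 overlap another annotated model and 5 share 50-base windows with other sites, so that their counts are less certain. GASA1, MIOX2, GH3.3, AT5G26200 and AT1G43590 lost their calls without the libraries labelled 4 days, and AT3G46880 lost its call in 7 of 20 alternative fits, among them those without each WT replicate.

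Most ribosomal protein genes lay slightly below WT. Of 336 tested genes with that product name, 25 were lower and 1 higher at the threshold, which is 7.74% called, near the 6.09% of all genes. Their direction was more uniform, since 313 of 336 (93.2%) had a log2 fold change below 0, beside 52.0% of all genes. In 61 (18.2%, beside 4.66% of all genes) all 6 transgenic values were below WT. In 0 (beside 5.78% of all genes) they were above. The 61 became 95 with upper-quartile scaling and 114 with library totals. Over all genes tested the 1058 below WT became 1522 and 1598. The shift was small, with a median of -0.133 and quartiles of -0.175 and -0.066. The median was -0.117 in 35S-ASCO and -0.145 in the RNAi-labelled libraries. Summed over the class, levels came to 50717, 44774 and 49837 CPM in WT, 44393, 42522 and 45771 CPM in 35S-ASCO, and 45061, 43882 and 44095 CPM in the RNAi-labelled libraries, so that WT replicate 2 fell within the transgenic range.

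AT4G36420, a ribosomal protein L12 family gene with the smallest p of the class among genes without overlap, ranged over 32.2 to 33.5 CPM in WT and 26.9 to 29.1 CPM (median 27.4) in the 6 transgenic libraries (log2 change -0.23 with SE 0.041 and edgeR adjusted p = 0.0135), and RPL16A over 27.7 to 29.9 CPM in WT and 17.8 to 27.1 CPM (median 21.3) in the 6 transgenic libraries (log2 change -0.37 with SE 0.073 and edgeR adjusted p = 0.0216). Both were singled out after their values were seen. The number lower was 0 without WT replicate 1, 83 without WT replicate 2 and 5 without WT replicate 3. It was 2 without 35S-ASCO replicate 2, 2 without RNAi-ASCO replicate 2, and 7 to 10 without each of 35S-ASCO replicate 1 and RNAi-ASCO replicates 1 and 3. With the transgenic libraries as a single group it was 1, by DESeq2 74, and with counts divided by library totals 54. The median log2 fold change of the class was -0.126 without the libraries labelled 4 days. It lay between -0.108 and -0.165 over the alternatives in which it was computed. Those do not include the fits with no filter or with a filter of 1 CPM in 3 libraries.

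**Figure D5:**
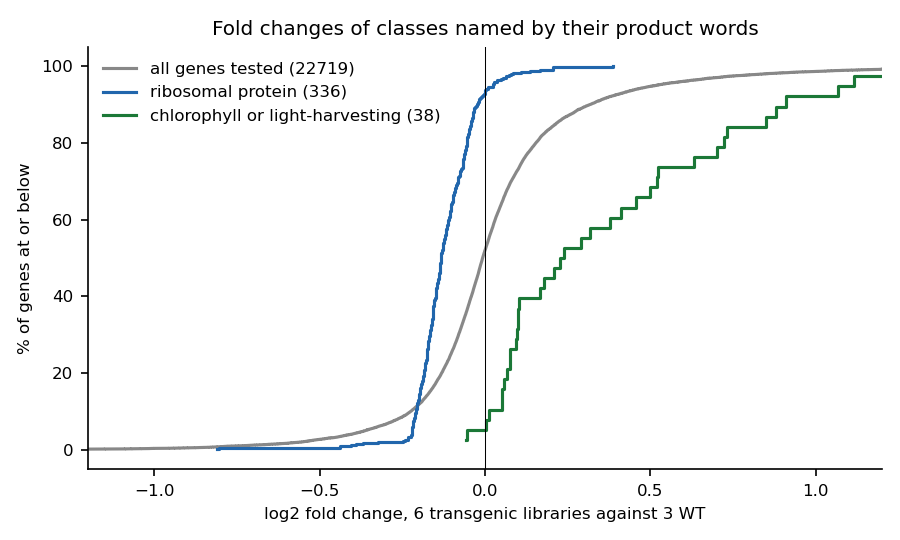
Curves give the cumulative percentage of genes at or below each log2 fold change of the 6 transgenic libraries against WT, for ribosomal protein genes (336), chlorophyll or light-harvesting genes (38) and all genes tested (22719); the axis ends at 1.2 on each side of 0. The ribosomal curve is steep and to the left of 0, with 93.2% of genes below 0, and the light-harvesting curve lies to the right, with 5.26% below 0.

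Genes with a disease resistance product name included 18 higher and 2 lower of 176 tested (11.4%, beside 6.09% of all genes). The number higher was 3 without WT replicate 1, 11 without 35S-ASCO replicate 2, 3 without the libraries labelled 4 days and 5 with the transgenic libraries as a single group. A run of 5 neighbouring models of chromosome 4 that include RPP4 and SNC1, receptors of the TIR-NBS-LRR class, were all higher without overlap, and were singled out after their values were seen. The WT libraries held 85.6, 84.4 and 93.5 CPM of RPP4, the 35S-ASCO libraries 163, 148 and 119 CPM, and the RNAi-labelled libraries 157, 143 and 165 CPM. Transgenic values of RPP4 lay above 118 CPM and WT values below 94 CPM (log2 change 0.76 with SE 0.094 and edgeR adjusted p = 0.00429). SNC1 ranged over 172 to 200 CPM in WT and 214 to 260 CPM (median 245) in the 6 transgenic libraries (log2 change 0.36 with SE 0.067 and edgeR adjusted p = 0.016). AT4G16870, a pseudogene of the run, was higher in the RNAi-labelled libraries than in 35S-ASCO (log2 change 1.06 with SE 0.078 and edgeR adjusted p = 0.000517; between the lines, edgeR adjusted p = 0.000621), and AT4G16880 and AT4G16892 passed as well (log2 change 1.02, edgeR adjusted p = 0.00898 and log2 change 0.61, edgeR adjusted p = 0.0495). Of the 50-base windows of RPP4 and SNC1, 33.7% and 22.0% recur elsewhere in the genome, and pairs that align equally well at several sites were removed by the authors' counting.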

How the data were processed

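Polyadenylated RNA of seedlings was sequenced as stranded paired-end libraries, per the labels' protocols. The submitters' processing notes name TopHat2, Bowtie2 and the build TAIR10, without versions. Per the file headers, the authors counted read pairs per gene model with sam2pkm, with no limit on insert size and with reads of equal best and second-best alignment score removed, so that genes with near-identical copies lose counts. The deposited values are raw counts of pairs (used) and of single reads (an alternative) for 33602 models, of which 32823 (97.7%) matched RefSeq locus tags. Of the parsed pairs, 86.83% to 92.8% were counted.

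Counts were filtered with filterByExpr, scaled by TMM and fitted in edgeR 4.0.16 (R 4.3.3), with 1 coefficient per genotype over all 9 libraries. The contrast was the mean of the transgenic coefficients minus WT. DESeq2 1.42.0 served as an alternative. The p-values measure the spread between the 3 libraries of each genotype. The fits were tested on simulated data. Same-numbered libraries deviated from their group means with correlations of -0.023 to 0.076, so that the numbers were not taken as pairs.

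Named genes are AT1G67105, up to 12 higher and 12 lower genes by the width of the gap (log2 CPM, prior count 2, mean level of at least 1 CPM), and up to 3 members of each of 14 lists (368 members) by smallest p. Other list members are quoted from their complete lists, and genes said to be singled out were chosen after their values were seen. The members and lists were chosen with earlier results of these data known. Upstream sequence and product names come from RefSeq's TAIR10.1, and 1 upstream window is not reported here. Sharing of sequence was measured as exact 50-base windows of a model, taken every 10 bases, that recur elsewhere in the genome.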

Additional observations from a re-analysis of the deposited data

Results flagged for a closer look

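LTI78 in RNAi-ASCO replicate 1 stood at 172 CPM, and on the log2 scale its gap to the nearest of the other 5 transgenic libraries made up 0.714 of the range of all 6, above Dixon's critical value of 0.625 for 6 samples. Chance gives such a value in about 1 of 20 groups, and the library is one of the 2 labelled 4 days.

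In 9 named genes the lines differed from each other at an edgeR adjusted p under 0.05 in the fit over all 9 libraries. As log2 of 35S-ASCO over the RNAi-labelled libraries, the difference was 7.51 in AT1G67105, 0.68 in LSU3, 0.31 in AT1G04770, 0.79 in AT1G33770, 0.40 in XTH19 and 0.77 in SHM7, with 35S-ASCO higher. It was -0.87 in GI, -0.91 in CYP79F2 and -0.68 in MYBL2, with the RNAi-labelled libraries higher. Age labels differ between the lines for 2 of 3 libraries, and the line and the age label cannot be told apart in those 2.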

How the results depend on the processing

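The number of genes past the threshold, 1384 in the edgeR fit over 9 libraries, was between 1278 and 1454 with RLE, upper-quartile or total-count scaling, with no filter or a filter of 1 CPM in 3 libraries, with single reads and with a replicate block. It was 2321 with DESeq2, 914 with counts thinned to the smallest library, 203 with the transgenic libraries as a single group, 74 without the libraries labelled 4 days, 210 when the adjusted p had to be under 0.01, and 151 when genes under 2-fold were left out. Leaving out 1 library at a time gave 314 to 1443. The 1027 genes without overlap and past the threshold became 683, 203, 63, 179 and 109 under thinning, the single group, the age labels, the stricter p and the fold minimum, 160 with a gap of at least 1.2-fold, and 273 to 1273 with 1 library left out. The 2371 genes without overlap became 205 with that gap, and 2578 to 4892 with 1 library left out, where fewer values have to be ordered. AT1G67105 had a log2 fold change of 8.819 in the single-group fit and missed the threshold there (adjusted p = 0.112), since the 2 lines' levels then enter one spread. Without pairing in the design, the replicate block gave 1278 genes. Of the 49 named genes, 14 passed in all 20 alternative fits, 29 in all 9 that leave out 1 library and 0 changed direction. Causes of the other changes were not tested. Depth limits the least covered genes, since 3 pairs correspond to 0.11 CPM in WT replicate 1.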
